A study of Mus musculus with 7 samples.

Results

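D1 and D2 spiny projection neurons were compared within each mouse, in 3 wild-type (WT) mice and, apart from them, in 4 HttQ175/+ mice. HttQ175 is a knock-in allele that puts an expanded CAG repeat into the mouse's own Htt gene, and the HttQ175/+ mice carry 1 copy. All 7 mice were male C57BL6/J and 14 months old, except HttQ175/+ replicate 1 at 15 months. Single nuclei of the striatum were sequenced with the Chromium 3' kit, 1 library per mouse. The comparison took every nucleus that the authors' annotation calls D1.MSN or D2.MSN, which is 2750 of 4524 nuclei (1809 D1.MSN and 941 D2.MSN). WT replicates 1 to 3 gave 163, 119 and 231 D1 nuclei and 96, 78 and 159 D2 nuclei. HttQ175/+ replicates 1 to 4 gave 367, 509, 177 and 243 D1 nuclei and 135, 264, 93 and 116 D2 nuclei. A profile, the mean of the nuclei of 1 subtype in 1 mouse, rested on 334640 to 906138 UMIs (counted RNA molecules) for D1 and 209301 to 433227 for D2.

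The spiny projection neurons are the inhibitory output cells of the striatum. D1 neurons carry the dopamine receptor Drd1, which raises cyclic AMP, make the peptides substance P (from Tac1) and dynorphin (from Pdyn), and feed the direct pathway. D2 neurons carry Drd2, which lowers cyclic AMP, and the adenosine receptor Adora2a, which raises it; they make enkephalin (from Penk), feed the indirect pathway, and are known to be affected early in Huntington's disease.

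Differences are given as D1 minus D2 on the log2 scale of CPM plus a pseudocount of 4.708 CPM. CPM is the UMIs of a gene scaled to a fixed total per nucleus, then averaged over the nuclei of a profile. For other cell types it was taken from UMIs summed over the nuclei of a genotype. A positive value means higher in D1, and differences of genes with low counts are understated. All differences were fitted with limma over all 14 profiles with the mouse as a block. They were called at a Benjamini-Hochberg adjusted p under 0.05 over 8699 genes. The subtype names come from the authors' annotation of these nuclei, by a method that the sources used here do not give. The calls within a genotype therefore describe the annotated classes and are no independent test of them. Whether a difference was narrowed or widened was tested directly, as the HttQ175/+ difference minus the WT difference.

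The 2 receptors separated the annotated classes, except within the pooled HttQ175/+ D2 nuclei. There both were found in as many nuclei, but the mice differed. A Drd1 UMI was found in 45.6% of WT D1 nuclei (234 of 513) and 2.70% of WT D2 nuclei (9 of 333), beside 12.4% of WT oligodendrocytes, a glial type that should lack it (median depths 2753, 2554 and 1972 UMIs). In HttQ175/+ mice the shares were 41.1% of D1 nuclei, 4.61% of D2 nuclei and 15.9% of oligodendrocytes (median depths 2008, 1787 and 2167 UMIs). Drd2, which was captured less often, had a UMI in 10.8% of WT D2 nuclei and 0.39% of WT D1 nuclei, and in 4.61% and 0.463% in HttQ175/+ mice. In HttQ175/+ D2 nuclei Drd1 and Drd2 were each found in 28 of 608, so in the pool these receptors alone do not mark that class as D2. By mouse, Drd1 was found in 9, 17, 1 and 1 D2 nuclei of HttQ175/+ replicates 1 to 4, and Drd2 in 3, 12, 6 and 7. Drd1 was thus found more often in replicates 1 and 2, and Drd2 in replicates 3 and 4. With each nucleus thinned to 1000 UMIs the Drd1 share was 31.6% of WT and 27.1% of HttQ175/+ D1 nuclei, and the Drd2 share 6.01% of WT and 2.63% of HttQ175/+ D2 nuclei, where the Drd1 share was 2.96%. Oligodendrocytes held a Drd2 UMI in 0.826% (WT) and 1.15% (HttQ175/+) of nuclei. Astrocytes held Drd1 in 3.92% (WT) and 8.59% (HttQ175/+) of nuclei, and Drd2 in 0 of 102 (exact 95% upper bound 3.55%) and 1.01% (median depths 1418 and 1924 UMIs). Shares in the opposite subtype lay below those in oligodendrocytes, and below those in astrocytes except for Drd2 in WT, and are not read as expression. No WT nucleus of either subtype, and 2 of the HttQ175/+ D2 nuclei, held UMIs of both receptors. Among the 4524 nuclei 3 barcodes occurred in more than 1 library.

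Textbook subtype genes kept their direction in HttQ175/+ mice, at smaller differences. Of the 18 measured genes of the D1 and D2 identity lists, 16 were called in WT and 17 in HttQ175/+ mice, where 1.17% and 0.609% of all genes tested were called. Of the 16 called in WT, 15 had a smaller difference in HttQ175/+ mice, and the exception was Ptprm. A smaller difference was found for 96 of all 102 genes called in WT and for 59.9% of all genes tested. Calling genes on their WT values favours a smaller difference elsewhere. The median difference of the 9 tested D1 genes went from 3.56 in WT to 2.74 in HttQ175/+ mice, and that of the 9 tested D2 genes from -3.06 to -2.30, against 0.02 over all genes in both genotypes. The direct test called none of the 18 at an adjusted p under 0.05 (lowest unadjusted p = 0.000818, adjusted p = 0.581, limma). These lists hold genes by which such neurons are usually named, so their direction is a description.

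**Figure D1:**
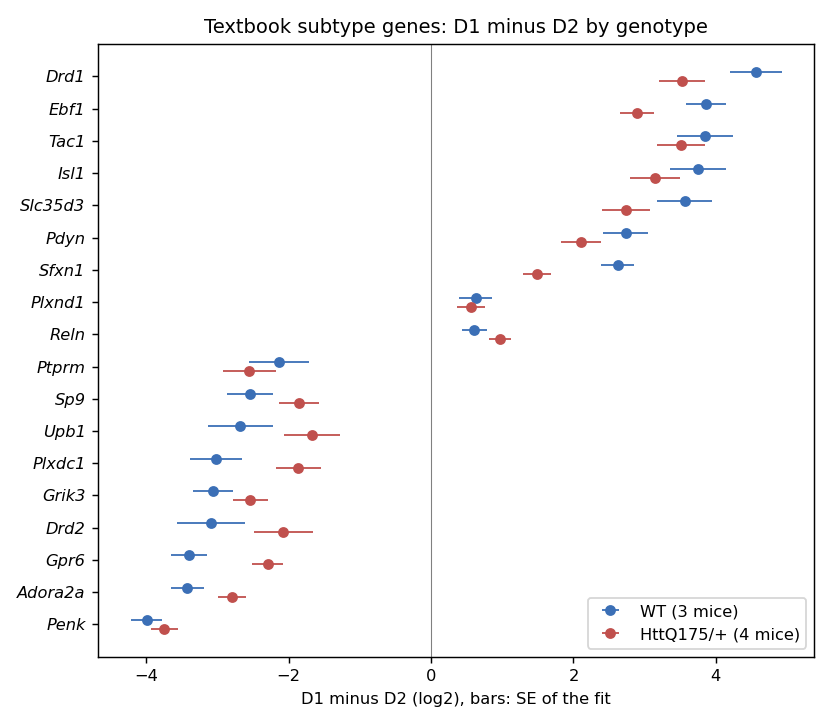
D1 minus D2 difference (log2, x axis) of the 18 tested textbook subtype genes in WT (blue, 3 mice) and HttQ175/+ (red, 4 mice), with the standard error of the limma fit as bars. The red points lie nearer to 0 for 16 of the 18 genes, beside 59.9% of all genes tested, and Ptprm and Reln are the exceptions.

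The stretches upstream of 4 of these genes are shown. They are both dopamine receptors, a peptide gene that kept most of its log2 contrast (Tac1) and the D2 list gene whose genotypes did not overlap (Gpr6). Each is the 250 bases before a RefSeq transcription start in GRCm38.p6, 5′ to 3′ on the gene's strand, with matches to the cyclic AMP response element TGACGTCA, its shorter form TGACG and the GC box GGGCGG, on either strand, in capitals.
Drd1, chr13:54055659-54055908, minus strand: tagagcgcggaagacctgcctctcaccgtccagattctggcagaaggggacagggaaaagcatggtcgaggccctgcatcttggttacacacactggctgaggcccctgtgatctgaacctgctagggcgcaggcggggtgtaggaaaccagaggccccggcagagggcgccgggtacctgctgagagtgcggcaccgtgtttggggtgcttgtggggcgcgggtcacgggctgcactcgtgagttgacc
Tac1, chr6:7554811-7555060, plus strand: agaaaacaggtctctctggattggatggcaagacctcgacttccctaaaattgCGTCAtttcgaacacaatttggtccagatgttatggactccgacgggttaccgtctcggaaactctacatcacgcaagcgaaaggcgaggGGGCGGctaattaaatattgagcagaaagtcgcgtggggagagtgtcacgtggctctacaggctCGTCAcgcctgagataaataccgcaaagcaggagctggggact
Drd2, chr9:49340153-49340402, plus strand: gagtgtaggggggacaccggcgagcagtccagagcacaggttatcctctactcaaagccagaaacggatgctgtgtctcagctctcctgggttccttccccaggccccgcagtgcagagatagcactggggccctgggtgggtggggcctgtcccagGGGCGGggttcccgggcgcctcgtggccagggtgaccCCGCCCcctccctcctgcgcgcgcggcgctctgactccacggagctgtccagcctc
Gpr6, chr10:41072291-41072540, minus strand: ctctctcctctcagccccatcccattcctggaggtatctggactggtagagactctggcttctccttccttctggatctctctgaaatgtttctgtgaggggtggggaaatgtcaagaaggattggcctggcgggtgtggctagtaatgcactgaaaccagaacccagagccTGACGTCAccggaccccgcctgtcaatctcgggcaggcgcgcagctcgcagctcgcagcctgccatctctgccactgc
Gpr6 holds a full TGACGTCA that begins 78 bases before its start, Tac1 holds the shorter form on the reverse strand and a GC box, and Drd2 holds 2 GC boxes. The Drd1 window printed holds no match, but the window before another RefSeq start of Drd1, not printed, holds a GC box. Of the 8711 such windows of tested genes, 3.03% hold TGACGTCA and 59.1% a GC box; of the 39 windows of genes called D2-higher in WT, 5.13% and 61.5% do, and of the 69 windows of D1-higher genes 2.9% and 49.3%. The full element lies in 2 windows of D2-higher and 2 of D1-higher genes. The short form TGACG, which also lies within the full element, is in 28.4% of the tested genes' windows. For D2-higher genes it is in 15.4% and for D1-higher genes in 23.2% of windows.

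Among receptors, Drd1 (chromosome 13, 54051183 to 54055705) measured 361.8, 499.3 and 552.0 CPM in the D1 nuclei of WT replicates 1 to 3, and 334.1, 373.0, 243.2 and 271.6 CPM in those of HttQ175/+ replicates 1 to 4. Its level in the D2 nuclei was 0, 41.83 and 32.88 CPM in the WT mice and 47.72, 54.36, 8.514 and 7.043 CPM in the HttQ175/+ mice. Every D1 profile was far above every D2 profile. The D1 minus D2 difference was 4.56 ± 0.37 (SE of the fit, n = 3) in WT and 3.52 ± 0.32 (n = 4) in HttQ175/+ mice, and the change of -1.04 did not pass the adjusted test (limma, unadjusted p = 0.0414, adjusted p = 0.787).

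Drd2 (chromosome 9, 49340627 to 49408177) measured 31.99, 39.11 and 52.12 CPM in WT D2 nuclei and 12.68, 26.67, 33.63 and 27.79 CPM in HttQ175/+ D2 nuclei. Its D1 profiles held at most 1.27 CPM in WT and 4.887 CPM in the HttQ175/+ mice. The WT value in D1 nuclei rests on 2 UMIs, against 39 in D2 nuclei, a ratio of 32.1 in UMI share (95% exact counting interval 8.3 to 274). The difference was -3.09 ± 0.48 in WT and -2.08 ± 0.42 in HttQ175/+ mice.

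Gpr6 is an orphan receptor that raises cyclic AMP. Its genotypes did not overlap in D1 minus D2, alone among the 9 tested D2 list genes, beside 6.16% of all genes tested. It measured 212.6, 269.7 and 236.0 CPM in WT D2 nuclei against 134.4, 110.1, 68.09 and 114.4 CPM in HttQ175/+ D2 nuclei, while D1 nuclei averaged 18.74 ± 3.66 and 17.74 ± 5.53 CPM (SD, n = 3 and 4). Its difference was -3.103, -3.40 and -3.682 in the WT mice and -2.171, -2.412, -1.909 and -2.691 in the HttQ175/+ mice. The change of 1.10 ± 0.33 had an unadjusted p of 0.00273 and an adjusted p of 0.703 (limma). The adenosine receptor Adora2a went from -3.42 ± 0.23 to -2.80 ± 0.20, and its D2 level from 502.6 ± 28.5 to 265.7 ± 15.8 CPM.

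The peptide genes Penk, Tac1 and Pdyn kept most of their contrast, while their mean levels in both subtypes were lower in HttQ175/+ mice. Penk measured 1561, 1132 and 1800 CPM in WT D2 nuclei and 423.7, 371.3, 330.8 and 399.3 CPM in HttQ175/+ D2 nuclei. In D1 nuclei it went from 88.96 ± 20.1 to 26.42 ± 13.0 CPM (SD, n = 3 and 4), and in oligodendrocytes, where it stands for background, from 226.9 to 124.5 CPM. Its difference was -4.00 ± 0.22 in WT and -3.75 ± 0.19 in HttQ175/+ mice, so 93.7% of it was kept on the log2 scale. Tac1 kept 91.2% (3.84 ± 0.39 and 3.505 ± 0.34), and Pdyn kept 77.1%. The D1 level of Tac1 went from 487.3 ± 88.7 to 248.3 ± 29.6 CPM, and its mean D2 level from 35.74 to 26.44 CPM. In HttQ175/+ replicate 3, a Tac1 UMI was found in 0 of 93 D2 nuclei. With 1 mouse left out, the Tac1 difference ranged from 3.232 to 4.226 in WT. In HttQ175/+ mice it ranged from 2.779 to 3.876, so the share that Tac1 kept is uncertain. The same list holds granin genes, whose proteins are stored with peptides, and these differed among themselves. Chga had a D1 minus D2 difference of 0.82 in WT and -0.12 in HttQ175/+ mice and Chgb 0.39 and -0.12, neither called in either genotype. Scg2 had 0.98 in WT, where it was called, and 0.80 in HttQ175/+ mice, where it was not.

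**Figure D2:**
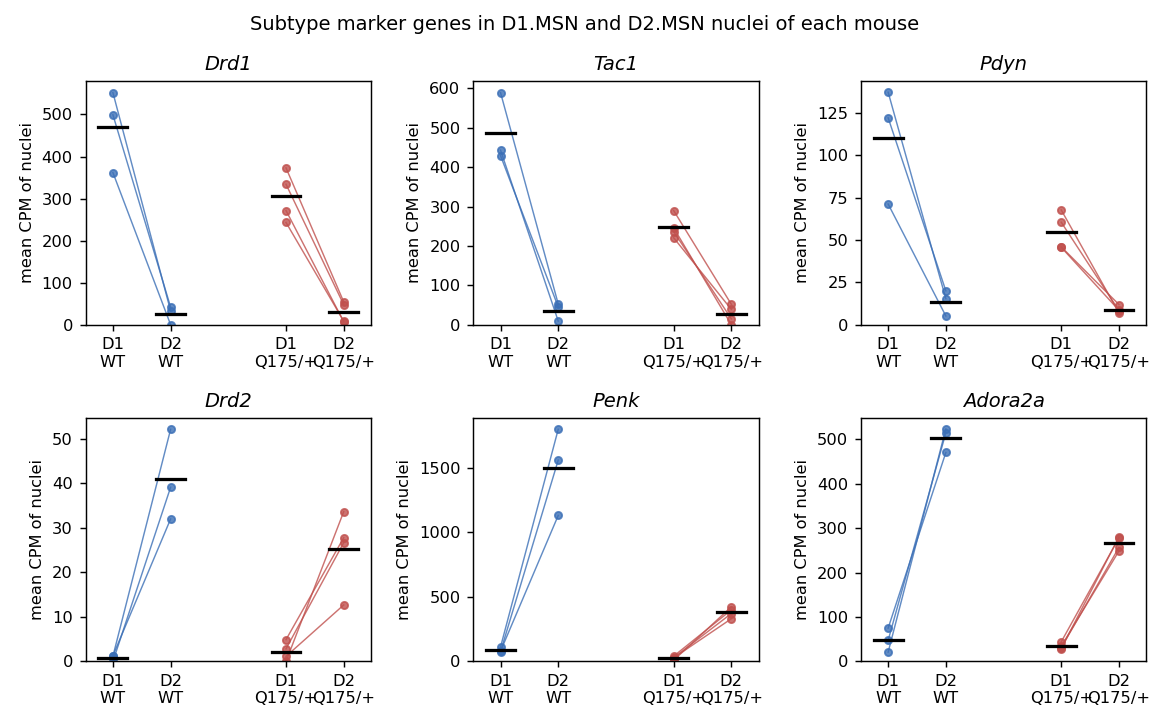
Mean CPM of D1 and D2 nuclei (y axis, linear from 0) for 6 subtype marker genes; lines join the subtypes of 1 mouse, blue for WT and red for HttQ175/+, and black bars are group means. Penk in D2 nuclei lies at 1132 to 1800 CPM in WT and 330.8 to 423.7 CPM in HttQ175/+ mice, and within every mouse each gene is higher in the same subtype.

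Of 22 tested transcription factors, 15 had a smaller difference in HttQ175/+ mice, beside 59.9% of all genes tested. The 3 in the D1 and D2 lists, Ebf1, Isl1 and Sp9, are among them, and the mean level of each in the opposite subtype was higher in HttQ175/+ mice. Ebf1, a factor of the direct-pathway lineage, measured 258.1, 200.1 and 278.1 CPM in WT D1 nuclei and 273.9, 310.9, 321.4 and 290.8 CPM in HttQ175/+ D1 nuclei. In D2 nuclei it measured 10.07, 3.826 and 36.21 CPM in WT and 33.38, 62.90, 19.31 and 39.27 CPM in the HttQ175/+ mice, ranges that overlap. Oligodendrocytes went from 41.26 to 109.0 CPM of Ebf1 and astrocytes from 20.85 to 114.0 CPM, above the D2 mean in both genotypes, and the part of background RNA in the D2 level was not tested. Its difference was 3.86 ± 0.28 in WT and 2.89 ± 0.24 in HttQ175/+ mice (adjusted p of the change 0.776, limma). Isl1, which directs the D1 fate, went from 3.75 ± 0.40 to 3.14 ± 0.35; in WT D2 nuclei it rests on 2 UMIs, and its ratio in UMI share was 34.4 (95% exact counting interval 9.29 to 287). Sp9, needed for D2 neurons, measured 6.668, 9.828 and 6.168 CPM in WT D1 nuclei and 21.58, 23.92, 12.99 and 27.00 CPM in HttQ175/+ D1 nuclei. All HttQ175/+ mice lay above all WT mice there, but oligodendrocytes held 34.39 and 27.54 CPM, more than either; the difference went from -2.54 ± 0.33 to -1.86 ± 0.28. Sp9 overlaps Cir1 on the other strand, and the sources used here do not say whether counting used strand, so its reads are uncertain.

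Foxp2, a forkhead factor, was not narrower: its difference was 2.24 ± 0.20 in WT and 2.49 ± 0.17 in HttQ175/+ mice. Among the D1 genes outside the receptors and factors, Sfxn1, a mitochondrial serine carrier that lies 16164 bases from Drd1 on chromosome 13, measured 160.8, 243.5 and 191.8 CPM in WT D1 nuclei and 125.7, 142.7, 114.0 and 112.5 CPM in HttQ175/+ D1 nuclei. Its difference was 3.085, 2.385 and 2.389 in the WT mice and 1.136, 1.568, 1.666 and 1.604 in the HttQ175/+ mice. The genotypes did not overlap, as for 6.16% of all genes tested, and Sfxn1 kept 57.0% (2.62 ± 0.23 to 1.49 ± 0.20). The sugar transporter gene Slc35d3 went from 3.56 ± 0.38 to 2.74 ± 0.33 (3 UMIs in WT D2 nuclei, ratio 20.9, 95% exact counting interval 6.95 to 103). Plxnd1, a semaphorin receptor, was not called in either genotype (0.63 ± 0.23 and 0.56 ± 0.20), and Reln, which encodes the secreted protein reelin, was called in HttQ175/+ mice and not in WT (0.61 ± 0.18, adjusted p = 0.108; and 0.97 ± 0.15, adjusted p = 0.000302, limma; adjusted p of the change 0.854). Eya1, Chrm4 and Zfp521 were too low to be tested.

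Of the other D2 genes, the kainate receptor subunit Grik3 went from -3.06 ± 0.28 to -2.54 ± 0.24, Plxdc1 from -3.02 ± 0.36 to -1.87 ± 0.32, and Upb1, a pyrimidine-breakdown enzyme, from -2.68 ± 0.46 to -1.67 ± 0.40. Upb1 overlaps Gucd1 on the other strand. Ptprm, a receptor tyrosine phosphatase, went the other way, from -2.14 ± 0.43 to -2.55 ± 0.37.

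The lists are set side by side by where the level lay lower or higher, a contrast that was not tested. Over the 9 D2 genes the median change from WT to HttQ175/+ was -0.76 in their own D2 nuclei and -0.18 in D1 nuclei. Over the 9 D1 genes it was -0.30 in D1 nuclei and 0.29 in D2 nuclei. The level in the opposite subtype lay below that in oligodendrocytes for 7 of 9 genes of each list in WT, and for 7 D1 genes and 9 D2 genes in HttQ175/+ mice, so a part played by background RNA in the low levels was not tested.

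Nucleus by nucleus, at 1000 UMIs each, UMIs of the own identity list exceeded those of the other list in 79.9% of WT D2 nuclei (69.2% to 85.4% over the 3 mice) and in 54.4% of HttQ175/+ D2 nuclei (50.9% to 58.1% over the 4 mice). In D1 nuclei the shares were 78.2% (74.2% to 81.0%) and 71.4% (69.6% to 72.7%). D2 nuclei with no UMI of either list made up 7.51% in WT and 24.7% in HttQ175/+ mice. Unthinned, the shares of D2 nuclei with more UMIs of their own list were 90.7% and 66.1%. At 1000 UMIs every HttQ175/+ mouse lay below every WT mouse in both subtypes. Unthinned, this held in D2 nuclei, but in D1 nuclei HttQ175/+ replicate 1 (86.65%) lay above WT replicate 2 (85.7%). The genes of a list do not weigh alike in these shares. Reln and Plxnd1 of the D1 list measured 165.5 and 81.54 CPM in WT D2 nuclei, and 121.2 and 88.76 CPM in HttQ175/+ D2 nuclei. Penk of the D2 list went from 1498 to 381.3 CPM in D2 nuclei. The part of single genes in the shares was not tested.

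With the textbook genes included, 102 of 8699 genes (1.17%) were called in WT. Of these, 60 were higher in D1 (0.69%) and 42 higher in D2 (0.483%). In HttQ175/+ mice 53 (0.609%) were called, 22 higher in D1 (0.253%) and 31 in D2 (0.356%). At an unadjusted p under 0.05 the counts were 958 (11.0%) and 565 (6.49%). With limma-voom on summed UMIs the WT calls split into 43 D1-higher and 66 D2-higher, and the HttQ175/+ calls rose to 80. Without the mouse as a block, 49 and 32 were called.

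Genes called in both genotypes numbered 42, all with the same sign, which is 41.2% of the WT calls and 79.2% of the HttQ175/+ calls. Called in WT and not in HttQ175/+ mice were 60 genes, 42 of them D1-higher and 18 D2-higher. In the reverse case there were 11. The median standard error over all genes was 0.271 in WT and 0.234 in HttQ175/+ mice, a ratio that follows from 3 and 4 mice because the fit pools their spread. The counts alone do not show that a difference changed, which is the subject of the direct test.

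**Figure D3:**
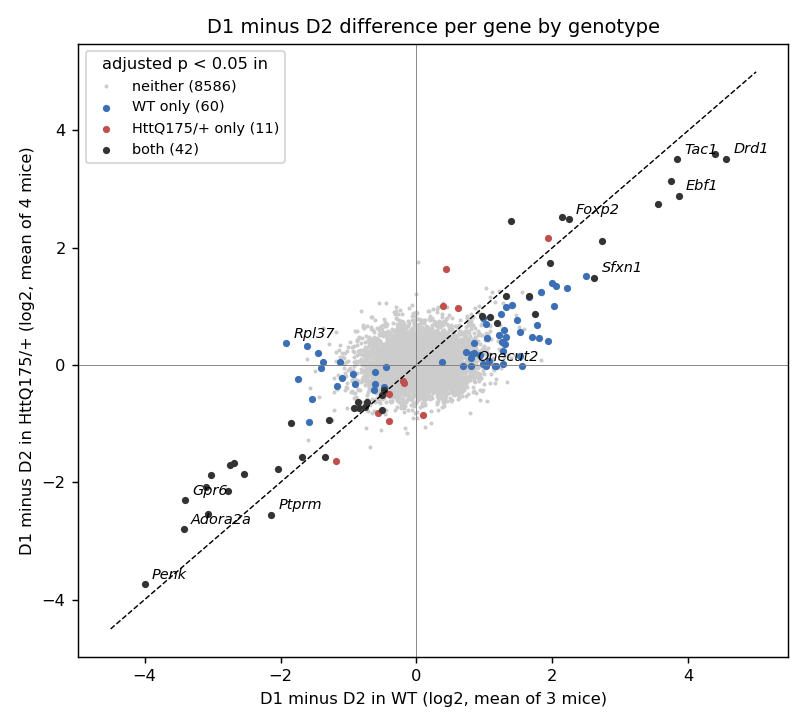
Each point is 1 of 8699 genes, with its D1 minus D2 difference in WT (x axis, log2, mean of 3 mice) and in HttQ175/+ mice (y axis, log2, mean of 4 mice); colours mark the genotype in which the limma call was made and the dashed line is equality. Of the 102 genes called in WT, 96 lie nearer to 0 on the y axis than on the x axis.

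Of the 102 genes called in WT, 96 had a smaller difference in HttQ175/+ mice, where 59.9% of all genes tested did, and 91 kept their sign. The median gene kept 60.5% of its WT difference on the log2 scale (quartiles 21.9% and 77.2%). The value read in each HttQ175/+ mouse was 52.0%, 43.8%, 59.6% and 58.4%, and without WT replicate 3 the median was 37.9%. D1-higher genes kept 50.0% and D2-higher genes 66.6%, a difference that was not tested. The 27 genes with a WT difference of at least 2 on the log2 scale kept 76.9% and 22 of them were called in HttQ175/+ mice; the other 75 kept 37.3% and 20 were called. For 29 of the 102 genes (28.4%) the WT mice and HttQ175/+ mice did not overlap, as for 6.16% of all genes tested. The WT values that called these genes also enter this count and raise it, so it is a description only.

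Picking genes by their WT values makes those values too large on average and the share kept too small. Genes were therefore picked in 2 WT mice and read in the WT mouse left out. Their median difference in the picked direction was 1.56 to 1.94 in the mice used to pick, 0.817 to 1.18 in the left-out WT mouse and 0.462 to 1.13 in the HttQ175/+ mice. The reading fell in the WT mouse that took no part, and the 12 HttQ175/+ readings lay at or below those of the left-out WT mouse of the same pick. In the mirror case, genes picked in 3 HttQ175/+ mice measured 1.51 to 1.62 in the left-out HttQ175/+ mouse and 1.66 to 2.33 in the WT mice.

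**Figure D4:**
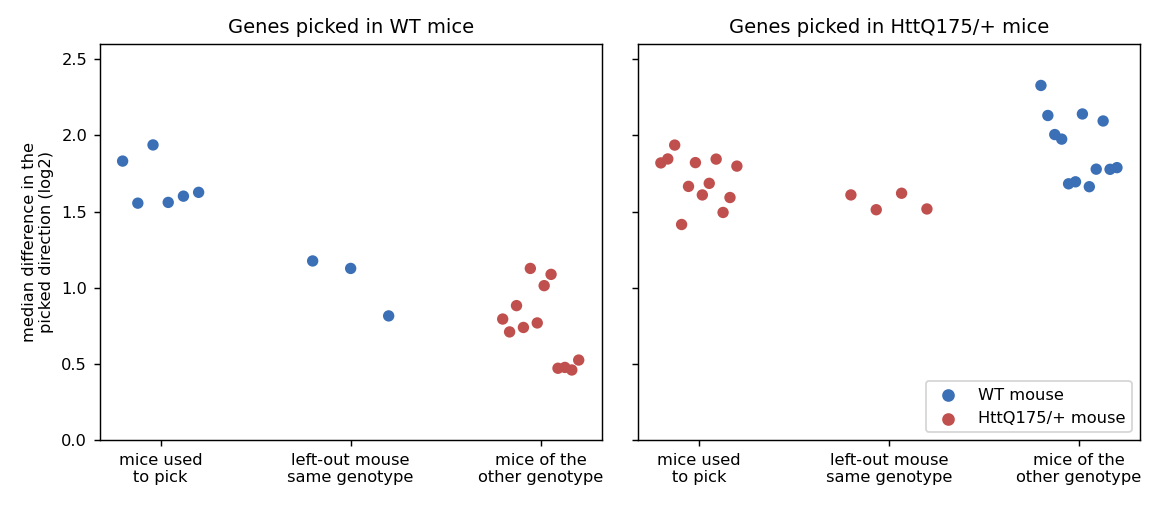
Median D1 against D2 difference (log2, y axis) in single mice, for genes picked from the WT mice (left) or the HttQ175/+ mice (right) with 1 mouse left out each time; blue points are WT mice and red points HttQ175/+ mice. Left-out WT mice lie at 0.817 to 1.18 beside 0.462 to 1.13 for HttQ175/+ mice, and left-out HttQ175/+ mice at 1.51 to 1.62 beside 1.66 to 2.33 for WT mice.

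The direct test called 1 of 8699 genes (0.0115%), Onecut2, and 544 (6.25%) had an unadjusted p under 0.05. Of the 102 WT-called genes, 47 had an unadjusted p under 0.05 for the change, and 46 of these were smaller in HttQ175/+ mice. The picking raises both counts, because the WT values that called these genes also enter the change. These counts are therefore no independent test of narrowing. The median standard error of the change was 0.358 over all genes.

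Onecut2, a homeodomain transcription factor of early neurons, measured 508.7, 591.3 and 376.9 CPM in WT D1 nuclei and 271.8, 366.8 and 214.3 CPM in WT D2 nuclei. In HttQ175/+ mice it measured 775.9, 827.2, 669.5 and 703.7 CPM in D1 nuclei and 794.4, 861.4, 731.3 and 632.8 CPM in D2 nuclei. Every HttQ175/+ profile was above every WT profile, and D1 exceeded D2 in every WT mouse but in 1 of the 4 HttQ175/+ mice, replicate 4. The difference went from 0.80 ± 0.11 (n = 3) to -0.02 ± 0.09 (n = 4), which is a change of -0.82 ± 0.14 by the limma fit across all genes. Its p was 4.53e-06 and its adjusted p 0.0394 (limma). From WT to HttQ175/+ the level changed by 1.30 in D2 nuclei and 0.48 in D1 nuclei. Oligodendrocytes held 230.4 CPM (WT) and 452.6 CPM in the HttQ175/+ mice, and the part of background RNA was not tested. The call was kept in 8 of 18 other settings, with adjusted p from 0.00596 to 0.999 and a change between -0.88 and -0.74; it was lost without WT replicate 1 or 3 or HttQ175/+ replicate 1, 2 or 3, and with marked doublets removed (adjusted p = 0.0821).

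The genes next in order of p did not pass. Rpl37, a ribosomal protein gene with near-identical copies that makes its counts uncertain, went from -1.92 ± 0.34 to 0.38 ± 0.29 (adjusted p of the change 0.0742, limma). It passed in place of Onecut2 when HttQ175/+ replicate 2 was left out. Dync1h1, a dynein heavy chain, went from -0.44 ± 0.18 to 0.54 ± 0.15, and Canx, a chaperone of the endoplasmic reticulum, from -1.37 ± 0.36 to 0.63 ± 0.31 (adjusted p of both changes 0.48, limma).

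**Figure D5:**
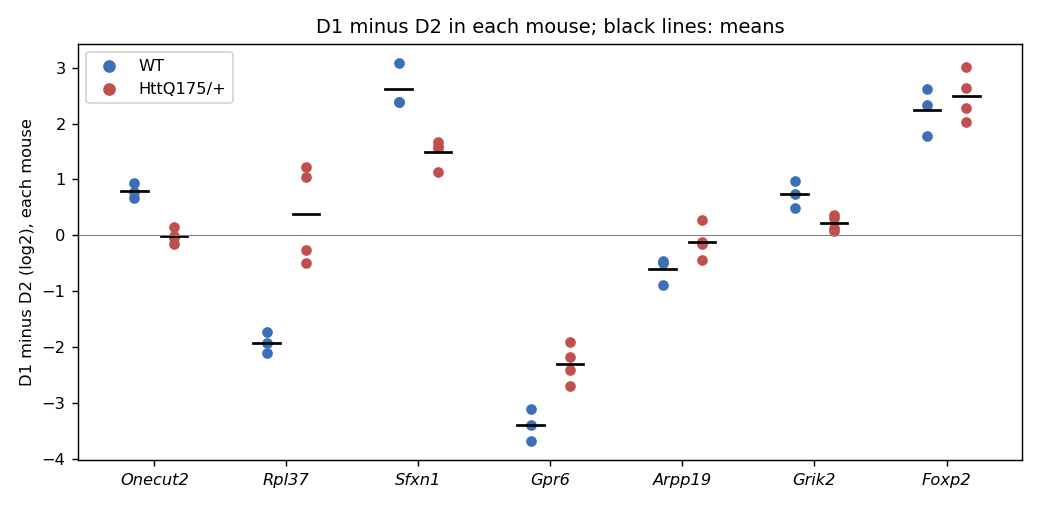
D1 minus D2 difference (log2, y axis) in each WT mouse (blue) and HttQ175/+ mouse (red) for 7 named genes, with group means as black lines. The genotypes do not overlap for Onecut2, Rpl37, Sfxn1, Gpr6, Arpp19 and Grik2, as for 6.16% of all genes tested, and they overlap for Foxp2. Only Onecut2 passed the adjusted test of the change.

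Other large WT differences lay outside the textbook lists. Lingo2, a neuronal adhesion protein, measured 117.6, 114.9 and 150.0 CPM in WT D1 nuclei and 2 UMIs in all WT D2 nuclei (ratio 59.6 in UMI share, 95% exact counting interval 16.3 to 495), and went from 4.39 ± 0.33 to 3.60 ± 0.29. Cntnap3, an adhesion gene of the contactin-associated family, went from 2.496 ± 0.50 to 1.52 ± 0.43 and was no longer called (adjusted p = 0.147, limma). Nt5e, the enzyme that makes adenosine from AMP outside the cell, measured 57.47, 85.05 and 41.80 CPM in WT D2 nuclei and 28.20, 37.31, 70.03 and 62.66 CPM in HttQ175/+ D2 nuclei, and went from -2.74 ± 0.36 to -1.70 ± 0.31.

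Several smaller differences were kept nearly whole; these and the following examples were chosen after their values were seen, except where a list is named. The proton-gated channel subunit Asic4 had 2.14 ± 0.30 and 2.53 ± 0.26, the synaptic adhesion gene Nrxn2 -1.69 ± 0.21 and -1.56 ± 0.18, the calcium-binding gene Necab1 -2.03 ± 0.27 and -1.77 ± 0.23, and the G protein subunit Gnb4 1.97 ± 0.30 and 1.74 ± 0.26. All were called in both genotypes. Among WT-only calls, the endocytosis gene Pacsin1 went from 0.68 ± 0.16 to -0.02 ± 0.14. It measured 169.1, 99.75 and 182.5 CPM in WT D1 nuclei and 99.33, 63.45 and 113.2 CPM in WT D2 nuclei, and 190.3 to 244.9 and 207.8 to 247.6 CPM in HttQ175/+ mice. The heat shock protein gene Hspa12a went from 1.17 ± 0.25 to -0.02 ± 0.22, Fgd4, a Cdc42 exchange factor, from 1.56 ± 0.33 to -0.02 ± 0.29, and Ndrg4 from 0.37 ± 0.08 to 0.05 ± 0.07. None of these changes passed the adjusted test (adjusted p = 0.581 to 0.703, limma).

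The 11 genes called in HttQ175/+ mice and not in WT included Reln, Cdh13 and Kif26b, higher in D1, and Fig4, Phlda1, Nav1, Tmsb4x, Sez6, Phactr1 and Pde10a, higher in D2. Of the genes named here, Reln was called with any 1 mouse left out. The others each lost the call without at least 1 HttQ175/+ mouse: without replicate 1, and likewise without replicate 3, Nav1, Tmsb4x, Fig4, Phlda1, Cdh13, Phactr1 and Pde10a; without replicate 2 Tmsb4x, Fig4, Phlda1, Cdh13, Sez6 and Phactr1; and without replicate 4 Nav1, Kif26b and Cdh13. Phactr1 also lost it without WT replicate 3. Over these genes the highest adjusted p lay between 0.118 (Kif26b) and 0.534 (Tmsb4x) by limma. For 10 of the 11 the WT difference had the same sign. Nav1, which guides microtubules in growing axons, was the exception, at 0.10 ± 0.22 in WT and -0.86 ± 0.19 in HttQ175/+ mice. Cdh13, an adhesion molecule, measured 59.78, 72.52 and 71.10 CPM in WT D2 nuclei and 19.71, 31.66, 30.73 and 28.03 CPM in HttQ175/+ D2 nuclei, with a difference of 0.40 ± 0.25 and 1.00 ± 0.21. Pde10a, the phosphodiesterase enriched in the striatum, measured 3934 to 4022 CPM in D1 and 4406 to 4754 CPM in D2 nuclei of WT mice, and 1668 to 1732 and 1927 to 2169 CPM in HttQ175/+ mice. Its small D2 excess, -0.20 ± 0.07 and -0.28 ± 0.06, was thus present in all 7 mice.

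In the list of genes that both subtypes share, 26 were tested: 2 were called in WT, Hpca among them, and 3 in HttQ175/+ mice, Hpca and Pde10a among them, all higher in D2, where 0.483% and 0.356% of all genes were called D2-higher. The calcium sensor Hpca measured 308.1, 230.1 and 276.9 CPM in WT D1 nuclei and 618.7, 413.2 and 538.0 CPM in WT D2 nuclei. In HttQ175/+ mice its level was 80.81 to 143.8 CPM in D1 and 156.6 to 254.2 CPM in D2 nuclei. Both subtypes lay lower in every HttQ175/+ mouse than in any WT mouse, and the D1 minus D2 difference was -0.92 ± 0.16 in WT and -0.73 ± 0.14 in HttQ175/+ mice.

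Of 16 tested neuromodulator receptors 7 were called in WT and 5 in HttQ175/+ mice. For this and the next 3 lists, the share of all genes called was 1.17% in WT and 0.609% in HttQ175/+ mice. The receptor list includes the identity genes Drd1, Drd2, Adora2a and Gpr6. The peptide list includes Penk, Tac1 and Pdyn, and the factor list Ebf1, Isl1 and Sp9. Such neurons are usually named by these genes, so the counts are a description. Beside those already given, the nociceptin receptor Oprl1 (1.77 ± 0.43 and 0.69 ± 0.37) and the orphan receptor Gpr149 (-1.54 ± 0.38 and -0.57 ± 0.33) were called in WT and not in HttQ175/+ mice. Of 6 tested peptide genes, 4 were called in WT and 3 in HttQ175/+ mice; the secretogranin Scg2 had 0.98 ± 0.24 and 0.80 ± 0.21. Of 22 transcription factors 5 were called in WT and 4 in HttQ175/+ mice. Of 38 genes of cyclic AMP and G protein signalling, Arpp19 and Prkar1a were called in WT and Pde10a in HttQ175/+ mice.

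Arpp19, a phosphatase inhibitor controlled by cyclic AMP, measured 460.3, 333.1 and 478.8 CPM in WT D1 and 674.4, 614.9 and 645.8 CPM in WT D2 nuclei, but 136.9 to 165.7 and 135.4 to 201.5 CPM in HttQ175/+ mice. Its difference went from -0.61 ± 0.15 to -0.11 ± 0.13. Prkar1a, a regulatory subunit of protein kinase A, went from 1.03 ± 0.26 to -0.01 ± 0.23, with WT replicate 2 low in D2 nuclei (19.14 CPM, against 133.5 and 135.6 in the other WT mice).

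Among 27 glutamate receptor and scaffold genes, Grik2, Grik3 and Shank1 were called in WT and Grik3 in HttQ175/+ mice. The kainate receptor subunits ran in opposite directions. Grik2 was higher in D1, with 533.2, 502.6 and 529.0 CPM against 278.8, 296.9 and 371.2 CPM in WT, and 280.9 to 345.6 against 232.3 to 286.4 CPM in HttQ175/+ mice (0.73 ± 0.13 and 0.22 ± 0.11, adjusted p of the change 0.765, limma). The postsynaptic scaffold Shank1 had 0.85 ± 0.22 and 0.38 ± 0.19, and its opposite strand holds an overlapping gene. Of 28 potassium channel genes the leak channel Kcnk2 was called in both genotypes (-0.76 ± 0.13 and -0.72 ± 0.11), and of 31 axon guidance genes Sema6d was called in WT (1.83 ± 0.42 and 1.25 ± 0.36). None of 14 GABA genes, 5 striosome genes, 4 matrix genes or 8 immediate early genes was called in either genotype. Against 1.17% and 0.609% of all genes, a count of 0 in lists of this size is a description only.

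Few markers of other cell types were high enough to be tested: 2 of 6 for oligodendrocytes, 1 of 13 for interneurons and 2 of 6 for eccentric spiny neurons. None of those tested was called between the subtypes. Summed over 6 oligodendrocyte markers, profiles held 30.98 to 163.4 CPM in WT D1, 79.96 to 215.4 CPM in WT D2, 59.70 to 176.1 CPM in HttQ175/+ D1 and 32.37 to 227.0 CPM in HttQ175/+ D2 nuclei, ranges that overlap. The 13 interneuron markers, of which Vip was at 0 in all profiles, summed to 25.77 to 74.80, 15.35 to 209.8, 56.13 to 76.20 and 22.52 to 89.74 CPM in the same order. The 6 markers of eccentric spiny neurons, a rarer class, summed to 41.62 to 66.66 CPM in WT D1 and 94.27 to 132.6 CPM in HttQ175/+ D1 nuclei, and to 12.14 to 26.02 and 44.98 to 75.31 CPM in D2 nuclei. The astrocyte, microglia and endothelial lists had no member high enough to test, and the cortical excitatory and progenitor lists 1 each; no profile held more than 78.87 CPM of any of these 5 lists. Of the 2 eccentric markers tested, Col11a1 went from 8.08 to 55.06 CPM in D1 and from 3.99 to 40.72 CPM in D2 nuclei between WT and HttQ175/+, while Otof went from 27.83 to 31.21 and from 9.74 to 10.87 CPM. The part of these nuclei in the differences above was not tested.

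D1 nuclei made up 62.9%, 60.4% and 59.2% of D1 plus D2 nuclei in the WT mice and 73.1%, 65.9%, 65.6% and 67.7% in the HttQ175/+ mice. Means were 60.9% ± 1.89 (SD, n = 3) and 68.1% ± 3.502 (SD, n = 4), and all HttQ175/+ mice lay above all WT mice. The two-sided exact permutation p over all 35 splits of the mice was 0.0571, the smallest this design allows, so it cannot reach 0.05. Nuclei annotated as spiny neurons of unknown subtype made up 1.43% ± 0.88 of the spiny neurons in WT and 3.49% ± 1.44 in HttQ175/+ mice (exact permutation p = 0.114). Fewer D2 neurons and D2 neurons left unnamed by the annotation cannot be told apart here.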

How the data were processed

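Nuclei of flash-frozen striatum were sequenced from 3 WT and 4 HttQ175/+ mice. Cell Ranger 3.0.2, Seurat and the mm10 build are named for the processing, per the submitters' processing notes; strand use, filters on nuclei and the calling of subtypes were not stated in the sources used here. Values were deposited by the authors on a natural log scale, ln of 1 plus UMIs per 10000 of the nucleus, without smoothing in the tables used; the columns of the other table used, the authors' annotation, give cell type, library and genotype. Whole UMIs were recovered for 100% of 5824756 values within a tolerance of 0.02. The members, gene lists and tests were chosen with earlier results of these data known.

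Linear values were averaged over nuclei per mouse and subtype, as CPM (printed before scaling), then scaled by trimmed means of M values and taken as log2 with a pseudocount worth 2 UMIs of the median profile, 424787 UMIs. Genes needed 15 UMIs in all and 23.54 CPM, 10 UMIs at that sum, in at least 3 of 14 profiles; this left 8699 of 27998 genes. limma 3.58.1 (limma-trend, R 4.3.3; residual df 5, prior df 22.71) was fitted once with mouse as a block. The pairing comes from the mouse: the D1 and D2 profiles of 1 mouse deviated together from their group means, with correlations across genes of 0.151 to 0.342. The numbers of the replicates only name mice and pair none across genotypes. The fit was tested on simulated data.

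Named were the 10 largest WT differences each way with 1 sign in all WT mice and at least 20 CPM, the 5 largest in HttQ175/+ mice, the 5 smallest p of the genotype difference (fewer than 3 passed), all identity genes and up to 4 WT-called members of each list; 3 WT-called and 2 HttQ175/+-called genes with provisional names were counted only, and not every gene it picks is reported here. Scrublet (scanpy 1.11.5) marked 53 of 4524 nuclei (1.17%) as doublets, 35 in the 2 subtypes; they were kept. Alternatives were other pseudocounts, scaling, filters, summed UMIs, limma-voom, no block, no doublets, equal UMIs, separate fits and leaving out each mouse. Median depth per nucleus was 2398 to 2816 UMIs in WT and 1547 to 2636 in HttQ175/+ profiles. Intervals (exact Clopper-Pearson, scipy 1.17.1) cover counting error only. Coordinates are from GENCODE vM21 on GRCm38 (mm10); upstream sequences are from RefSeq, GRCm38.p6.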

Additional observations from a re-analysis of the deposited data

Results flagged for a closer look

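Onecut2 stands here because its D1 minus D2 difference differed between the genotypes in the direct test, by -0.818 on the log2 scale. It was the 1 gene of 8699 that passed.

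In 4 of 108 groups of 4 HttQ175/+ mice, 1 mouse stood apart in the D1 minus D2 difference of a named gene. Chance gives about 1 in 20, so the count was no higher than chance gives. Syt7 was lowest in HttQ175/+ replicate 1 at 0.605, and the other three mice lay at 0.88 to 0.89. Gnb4 was highest in the same mouse at 2.69, and Cacnb2 was nearest to 0 there at -0.195. This mouse is the 15-month-old one, and a part of age was not tested. Shank1 was highest in HttQ175/+ replicate 4 at 0.541.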

How the results depend on the processing

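No difference of a named called gene turned its sign in any setting. Of the 99 named genes called in WT, 38 were called in every other setting and 40 with any 1 mouse left out; of the 51 in HttQ175/+ mice, 26 and 28 were. With no filter on low values, 56 genes were called in WT, 0 for the genotype difference, and the median kept was 69.0%. The fit without the mouse as a block, which drops the pairing of the subtypes, called 49 in WT, 32 in HttQ175/+ mice and 0 for the genotype difference, with a median kept of 71.6%. With limma-voom, 80 were called in HttQ175/+ mice and 3 for the genotype difference, Onecut2, Rpl37 and Malat1 (0.06 on the log2 scale). The genotype difference called 0 genes with a pseudocount worth 1 UMI, without marked doublets, or with equal UMIs in both subtypes, and 2, Onecut2 and Rpl37, with a pseudocount worth 4 UMIs. With 1 mouse left out, calls ranged from 68 to 113 in WT, 38 to 61 in HttQ175/+ mice and 0 to 1 for the genotype difference; the median kept ranged from 37.9% (without WT replicate 3) to 63.9%, and the rise in the share of D1 nuclei from 5.51 to 8.23 points. The cause of these shifts was not tested. The depth of the D2 profiles, 209301 UMIs at the lowest, limits what is seen of low genes.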

Other observations

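Called genes lay beside each other in 7 of the 11165 pairs of tested genes within 100000 bases, over 113 genes called in either genotype, and the pairs all shared a direction. Beside Drd1 and Sfxn1 they were Adora2a and Upb1 (66331 bases apart on chromosome 10, both D2-higher), Sirpa and Pdyn, Mdk and Dgkz, Ltk and Tyro3, Gmppa and Asic4 (all D1-higher), and Thpo and Chrd, which overlap on opposite strands and share uncertain reads (both D2-higher). Asic4 had 2.14 in WT and 2.53 in HttQ175/+ mice, while its neighbour Gmppa had 1.30 and 0.35. Dgkz, a lipid kinase, had 1.65 and 1.18, and Mdk, a growth factor that lies 527 bases away on the same strand, had 2.06 and 1.36. The share of all 11165 pairs with a shared direction was not taken, nor the number of called pairs that position alone would give. The count and the shared direction of the pairs are therefore descriptions only.

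The alpha and beta subunit genes of the nitric oxide receptor, Gucy1a3 and Gucy1b3, were both D2-higher in WT (-1.29 and -0.90) and measured -0.94 and -0.32 in HttQ175/+ mice, where Gucy1a3 was called. These genes were chosen after their values were seen.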
